A study of Mus musculus with 4 samples.

Results

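The 10 genes described here belong to the integrated stress response and the unfolded protein response, and they were taken as a fixed list of symbols: Atf4, Atf5, Ddit3, Chac1, Trib3, Asns, Ddit4, Sesn2, Hspa5 and Xbp1. All 10 were present among the 31053 genes of each matrix. They were followed in sensory neurons of the dorsal root ganglion (DRG) across neuronal classes, between sham surgery and chronic constriction injury (CCI), and between neurons with and without the injury-induced gene Sprr1a.

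The integrated stress response is a pathway in which kinases that sense a shortage of amino acids, unfolded protein, viral RNA or haem phosphorylate the translation factor eIF2, so that protein synthesis slows while a few messages, among them Atf4 and Atf5, are translated more. ATF4 then switches on genes of amino acid synthesis, transfer RNA charging, redox control and cell death. The unfolded protein response shares one arm with it and adds the IRE1 and ATF6 arms, which splice Xbp1 and raise chaperones of the endoplasmic reticulum (ER) such as Hspa5, and ATF4-dependent transcription is known in sensory neurons after axon injury.

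The data were 4 droplet single-cell libraries of UMI counts from lumbar DRGs 7 days after bilateral sciatic surgery, a pair from sham mice (Male-Sham and Female-Sham) and a pair from injured mice (Male-CCI and Female-CCI). In CCI the sciatic nerve is loosely tied, whereas sham surgery was described as involving damage to skin and muscle. Every mouse, sham animals included, was a 7 to 8 week old PirtEGFPf heterozygote on the C57BL/6 background, a knock-in that loses 1 copy of Pirt to a membrane-bound EGFP and so marks cells in which the Pirt promoter is active, and EGFP-positive cells were sorted. Each library pooled 5 mice and 20 DRGs whose cells cannot be assigned to an animal, so the libraries of both sexes served as replicates of each surgery (n = 2), and p-values measure the spread between libraries, with sex as part of it. Mice of 1 litter, male and female, all received 1 kind of surgery, so the libraries of a surgery may share litters, and litter and surgery cannot be told apart in any comparison of CCI with sham.

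After filters 15715 cells remained, 15133 of them neurons, with 159902783 to 189489772 neuronal UMIs per library and a median of 32490 to 56457 UMIs per neuron. Levels are UMIs of a gene per 1000000 UMIs of the cells summed within a library (CPM), and coordinates are those of GRCm38. Neurons were called Sprr1a+ where the natural-log normalised Sprr1a value was above 1, which took 1.28% and 2.67% of the Male-Sham and Female-Sham neurons and 52.1% and 49.2% of the Male-CCI and Female-CCI neurons. The neurons carried Tubb3 at 2451 to 4688 CPM, and Pirt was at 584 and 576 CPM in sham and at 399 and 415 CPM in CCI. Of 10 satellite glial cell (SGC) markers none was at 0 in neurons, and their sum was 2805, 3238, 2168 and 2388 CPM. Here and below 4 values stand for sham and then CCI libraries, with the male library before the female one. The part of this glial RNA in the results was not tested. Immune markers summed to 52.5 to 77.7 CPM in Sprr1a+ neurons and 6.94 to 12.6 CPM in Sprr1a- neurons. Of the 10 immune markers 1 or 2 reached 10 CPM in the Sprr1a+ neurons of a library and 0 in its Sprr1a- neurons. The part of immune RNA was not tested either. Schwann cell markers summed to 392 to 441 CPM in Sprr1a- and 487 to 583 CPM in Sprr1a+ neurons, and endothelial markers to 63.9 to 73.5 and 38.4 to 69.4 CPM. After the filters 17 barcodes were shared between pairs of libraries.

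The genes of the list carry known control elements, and 3 promoters are shown because they hold a motif of either arm within 250 bases before the start site in the RefSeq sequences (GRCm38.p6). The C/EBP-ATF element was searched as TGATGNAA on both strands and was found in Asns and Chac1, and in 3.45% of 32851 promoters of the same length. The ER stress element was searched as CCAAT and CCACG with 9 bases between them, on both strands, and was found in Hspa5 alone among the 10 genes, and in 0.113% of promoters. Capitals mark the motif: in Asns (chr6:7693210-7693459, minus strand) it lies 23 to 16 bases before the start, in Chac1 (chr2:119350992-119351241, plus strand) 193 to 186 bases before it on the opposite strand, and in Hspa5 (chr2:34771840-34772089, plus strand) 65 to 47 bases before it. These starts are those of the RefSeq sequences, whereas the gene spans given below are those of the GENCODE annotation. By the GENCODE spans the motifs of Asns and Hspa5 lie inside the gene rather than before it. A match describes the letters in the window and is not evidence of binding.
Asns: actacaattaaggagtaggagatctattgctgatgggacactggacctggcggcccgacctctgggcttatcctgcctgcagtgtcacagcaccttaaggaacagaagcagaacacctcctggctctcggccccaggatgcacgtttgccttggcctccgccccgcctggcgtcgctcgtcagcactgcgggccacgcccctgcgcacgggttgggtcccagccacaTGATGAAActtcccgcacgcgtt
Chac1: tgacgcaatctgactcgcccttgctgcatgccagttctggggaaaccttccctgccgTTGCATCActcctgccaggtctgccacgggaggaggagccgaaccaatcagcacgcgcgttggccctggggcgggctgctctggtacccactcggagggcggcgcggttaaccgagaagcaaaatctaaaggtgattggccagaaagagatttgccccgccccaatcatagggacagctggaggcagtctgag
Hspa5: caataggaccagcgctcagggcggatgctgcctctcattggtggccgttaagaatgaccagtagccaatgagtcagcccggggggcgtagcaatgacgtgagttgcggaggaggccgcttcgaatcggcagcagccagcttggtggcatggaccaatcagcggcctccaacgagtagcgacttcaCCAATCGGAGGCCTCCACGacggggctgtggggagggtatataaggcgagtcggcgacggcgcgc

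Comparing all neurons of CCI with all neurons of sham asked how far the pathway moved with nerve injury. The transcription factors and most of the ATF4 targets rose, whereas the ER chaperone Hspa5, Xbp1 and the mTORC1 inhibitor Ddit4 did not reach the threshold. By the quasi-likelihood test of edgeR, with p-values of 17233 genes adjusted by the Benjamini-Hochberg method, 7 of the 10 genes were called higher and 0 lower (adjusted p below 0.05 and a log2 change beyond 0.5), against 15.2% of all genes tested called higher and 12.7% called lower. The median log2 change of the 10 genes was 0.94, beside -0.01 over all genes tested.

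Atf4, the transcription factor at the centre of the response (chr15:80255184-80257541), was at 108, 111, 194 and 201 CPM, and its log2 change was 0.91 ± 0.05 (SE; edgeR adjusted p = 2.77e-05). Atf5, a related factor under the same translational control that is tied to mitochondrial stress (chr7:44812256-44816658), was at 83.9, 79.7, 154 and 148 CPM (log2 change 0.94 ± 0.05). Ddit3, which encodes the death-associated factor CHOP downstream of ATF4 (chr10:127290774-127296288), was at 39.3, 40.5, 103 and 115 CPM (log2 change 1.51 ± 0.06, edgeR adjusted p = 1.04e-05). For each of these 3 factors both CCI libraries lay above both sham libraries, and the gap was larger than the difference between the sexes.

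Among the effectors Chac1, an enzyme that degrades glutathione (chr2:119351229-119354381), moved most, from 3.49 and 4.20 CPM in sham to 23.2 and 22.8 CPM in CCI (log2 change 2.64 ± 0.10, edgeR adjusted p = 8.58e-06). Sesn2, a stress-inducible inhibitor of mTORC1 (chr4:132492032-132510501), was at 1.57, 1.95, 6.36 and 7.15 CPM (log2 change 1.99 ± 0.13). Trib3, a pseudokinase that dampens Akt and ATF4 signalling (chr2:152337422-152344032), was at 2.58, 2.79, 8.44 and 8.58 CPM (log2 change 1.72 ± 0.08). These 3 genes were low in sham and their sham and CCI libraries did not overlap. Asns, asparagine synthetase (chr6:7675169-7693254), was already at 116 and 120.4 CPM in sham and reached 224 and 213 CPM in CCI (log2 change 0.94 ± 0.06).

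Ddit4, which encodes the mTORC1 inhibitor REDD1 (chr10:59949669-59951834), was at 19.1, 18.5, 19.3 and 20.4 CPM (log2 change 0.14 ± 0.06, edgeR adjusted p = 0.0715). Hspa5, the ER chaperone BiP (chr2:34771970-34777547), was at 131, 128, 154 and 148 CPM and passed the p limit but not the size limit (log2 change 0.28 ± 0.05, edgeR adjusted p = 0.00363). Xbp1, the message that IRE1 splices (chr11:5520659-5525893), was at 69.2, 66.2, 69.5 and 70.2 CPM (log2 change 0.10 ± 0.04, edgeR adjusted p = 0.0741). The libraries thus separated by surgery for all 3 of these genes, with narrower gaps than for the called genes relative to their levels. UMI counts at the 3′ end show neither the splicing of Xbp1 nor the translation of Atf4 and Atf5.

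**Figure D1:**
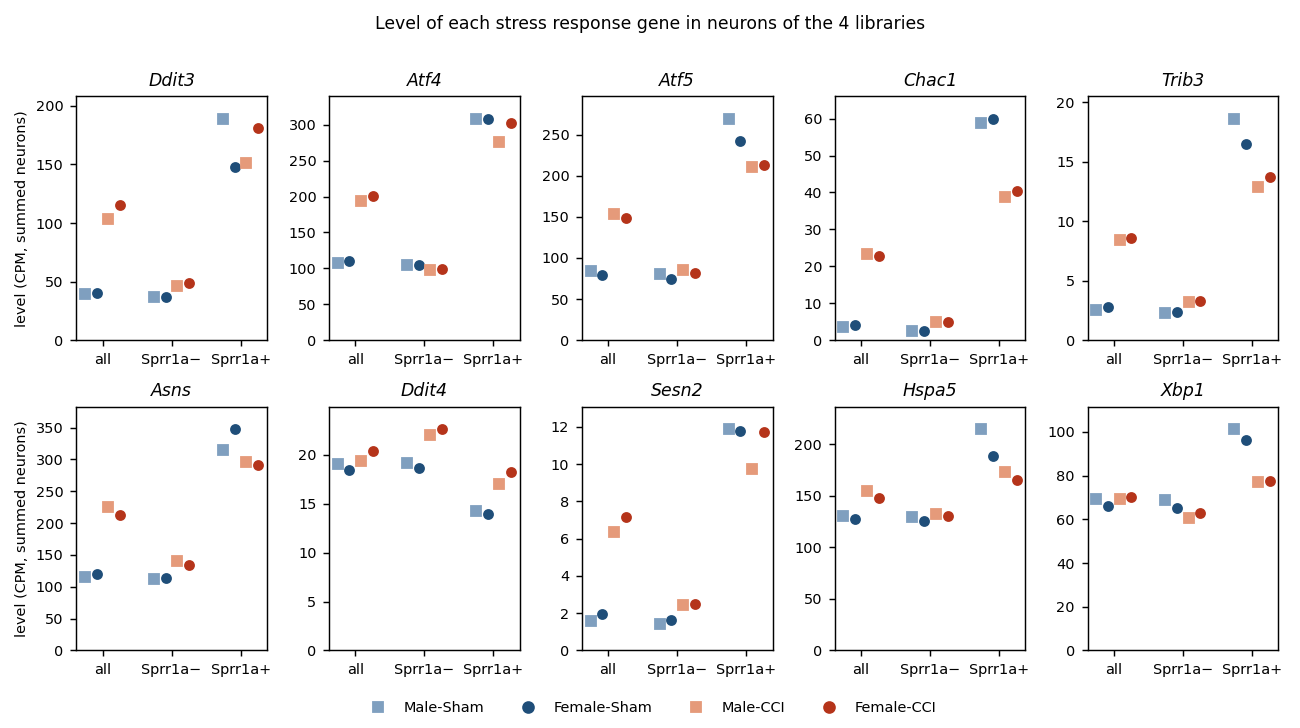
Level of each of the 10 genes (CPM, each panel with its own axis) in all neurons, Sprr1a- neurons and Sprr1a+ neurons, 1 point per library. For Atf4 the CCI points of Sprr1a- neurons (97.7 and 99.3 CPM) lie close to the sham points (105 and 104 CPM), and for Chac1 they lie above them (4.93 and 4.88 against 2.62 and 2.37 CPM) but far below the Sprr1a+ neurons of both surgeries (38.7 to 60.0 CPM).

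Since CCI changed the share of Sprr1a+ neurons, the all-neuron sums mix 2 kinds of cells, and Sprr1a- neurons were compared on their own (3239, 5254, 1350 and 1848 neurons). Fewer of the genes were called there. By the same edgeR test 2 of the 10 genes were called higher, against 3.24% of 16407 genes. Chac1 was at 2.62, 2.37, 4.93 and 4.88 CPM (log2 change 0.96 ± 0.10, edgeR adjusted p = 0.00469) and Sesn2 at 1.40, 1.63, 2.41 and 2.49 CPM (log2 change 0.67 ± 0.14, edgeR adjusted p = 0.0221). Both CCI libraries lay above both sham libraries for each gene. The Sprr1a- groups also differed in cluster mix: neurons in clusters named for CCI-induced markers numbered 5 and 11 in sham and 33 and 52 in CCI. The part of this mix was not tested. The Sesn2 call was lost when any 1 of the 4 libraries was left out (log2 change 0.55 to 0.79).

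The other members of Sprr1a- neurons moved by less than the size limit. Ddit3 had a log2 change of 0.33 ± 0.04 (edgeR adjusted p = 0.00603), Trib3 0.46 ± 0.11 and Asns 0.26 ± 0.05. With doublets kept Trib3 was called (0.51, edgeR adjusted p = 0.0206). Atf4 was at 105, 104, 97.7 and 99.3 CPM, slightly lower in CCI (log2 change -0.11 ± 0.05, edgeR adjusted p = 0.142). Sprr1a itself was not absent from these neurons: it was at 0.470 and 1.24 CPM in sham and 23.1 and 27.0 CPM in CCI, beside 57.4 and 98.9 CPM in the SGC-like cells of CCI. When every neuron with a single Sprr1a UMI was moved to the positive group, 0 of the 10 genes were called in the remainder, where 5899 of 15974 genes had an unadjusted p below 0.05 and 954 were called, and Chac1 had a log2 change of 0.40 (edgeR adjusted p = 0.107).

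Within the CCI libraries, Sprr1a+ neurons (1467 Male-CCI, 1789 Female-CCI) were set against Sprr1a- neurons (1350 and 1848) of the same library. The factors, the amino acid and redox effectors and Hspa5 were higher in Sprr1a+ neurons: 8 of 10 genes were called higher and 0 lower by edgeR with the library as a block, against 20.9% of 16241 genes called higher and 24.7% called lower. The call of Hspa5 was lost with any Sprr1a UMI as positive (log2 0.24), with doublets kept (0.46) and with library totals in place of trimmed-mean (TMM) factors (0.37), under which the split of all calls moved from 3394 higher and 4007 lower to 2577 higher and 5003 lower. Because both groups come from the same 2 libraries, these p-values reflect splits of the same pools of mice. The groups were also not matched for neuronal class. Of the Sprr1a+ neurons 1097 and 1288 lay in clusters named for CCI-induced markers, against 33 and 52 of the Sprr1a- neurons. The part of this mix was not tested, here or in the later comparisons by Sprr1a status over all classes.

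In order of log2 difference the called genes were Chac1 (3.19 ± 0.05), Sesn2 (2.30 ± 0.09), Trib3 (2.21 ± 0.08), Ddit3 (1.98 ± 0.05), Atf4 (1.72 ± 0.03), Atf5 (1.51 ± 0.03), Asns (1.27 ± 0.03) and Hspa5 (0.54 ± 0.03). Atf4 was at 276 and 302 CPM in Sprr1a+ neurons and at 97.7 and 99.3 CPM in Sprr1a- neurons of Male-CCI and Female-CCI. Chac1 was at 38.7 and 40.4 CPM against 4.93 and 4.88 CPM. The 2 kinds of neurons did not overlap for any called gene. Ddit4 went the other way, at 17.1 and 18.2 CPM against 22.0 and 22.7 CPM, but its log2 difference of -0.17 ± 0.05 was below the size limit. Within single classes, against Sprr1a- sham neurons, Ddit4 was higher in some and lower in another, as given below. Xbp1 was at 76.9 and 77.4 CPM against 60.7 and 62.9 CPM and also stayed just below it (log2 0.49 ± 0.03), although it was called with a Sprr1a limit of 2 (0.51, edgeR adjusted p = 7.60e-07).

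The few Sprr1a+ neurons of sham animals (42 in Male-Sham, 144 in Female-Sham) also carried most of the 10 genes at higher levels. Against the Sprr1a- neurons of their own libraries 9 of 10 genes were called higher by edgeR with the library as a block, against 14.7% of 15832 genes. Of the Sprr1a+ sham neurons 36 and 127 lay in clusters named for CCI-induced markers, against 5 and 11 of the Sprr1a- ones. The part of this mix was not tested. The log2 difference was 4.70 ± 0.16 for Chac1, 3.06 ± 0.28 for Sesn2, 3.01 ± 0.22 for Trib3, 2.27 ± 0.06 for Ddit3, 1.83 ± 0.06 for Atf5, 1.68 ± 0.05 for Atf4, 1.67 ± 0.05 for Asns, 0.76 ± 0.06 for Hspa5 and 0.68 ± 0.07 for Xbp1. With any Sprr1a UMI as positive the calls of Hspa5 (0.26) and Xbp1 (0.32) were lost. Ddit4 again was not called (-0.30 ± 0.14, edgeR adjusted p = 0.0502). Chac1 was at 58.7 and 60.0 CPM in the Sprr1a+ neurons of sham and Asns at 314 and 348 CPM, beside 38.7 and 40.4 CPM and 296 and 291 CPM in those of CCI. Both sham libraries lay above both CCI libraries for these genes and for Atf5, Trib3, Sesn2, Hspa5, Xbp1 and Atf4, and below them for Ddit4, while Ddit3 overlapped, and the difference between surgeries within Sprr1a+ neurons was not tested.

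**Figure D2:**
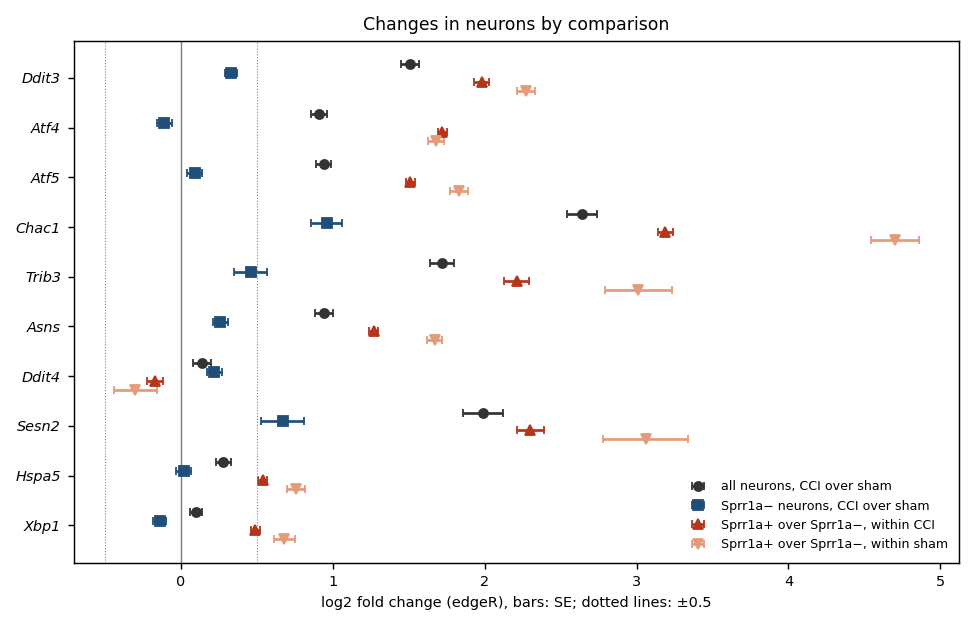
Log2 change of each gene with its standard error in 4 comparisons: all neurons and Sprr1a- neurons (CCI against sham), and Sprr1a+ against Sprr1a- neurons within CCI and within sham. Dotted lines mark the size limit. Chac1 reaches 2.64 in all neurons, 0.96 in Sprr1a- neurons, 3.19 within CCI and 4.70 within sham, whereas Ddit4 lies between -0.30 and 0.22.

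Neurons were also grouped in finer steps of Sprr1a, as a description without a test. These groups were not matched for neuronal class either. In Female-CCI, Sprr1a itself was at 0, 38.4, 409, 1304 and 3739 CPM in neurons with 0 UMIs of it, with a normalised value up to 1, from 1 to 2, from 2 to 3 and above 3. Chac1 in the same order was at 3.70, 5.38, 39.4, 34.1 and 43.1 CPM, and Atf4 at 97.4, 100.2, 270.3, 285 and 312 CPM. Both thus changed mainly between the second and the third group, where Sprr1a was still about an order of magnitude below its top level. In Male-CCI, Ddit3 followed the same course, at 39.0, 48.8, 157, 142 and 154 CPM. Hspa5 was higher from the third group on as well, by a smaller ratio, at 146, 123, 168, 160.0 and 167 CPM in Female-CCI. For Xbp1 the CCI libraries differed, at 67.3, 61.1, 67.3, 76.3 and 79.0 CPM in Female-CCI and at 61.0, 60.6, 75.4, 79.9 and 76.3 CPM in Male-CCI. Ddit4 was lower along the groups of Female-CCI instead, at 27.2, 20.8, 19.9, 17.2 and 18.5 CPM.

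**Figure D3:**
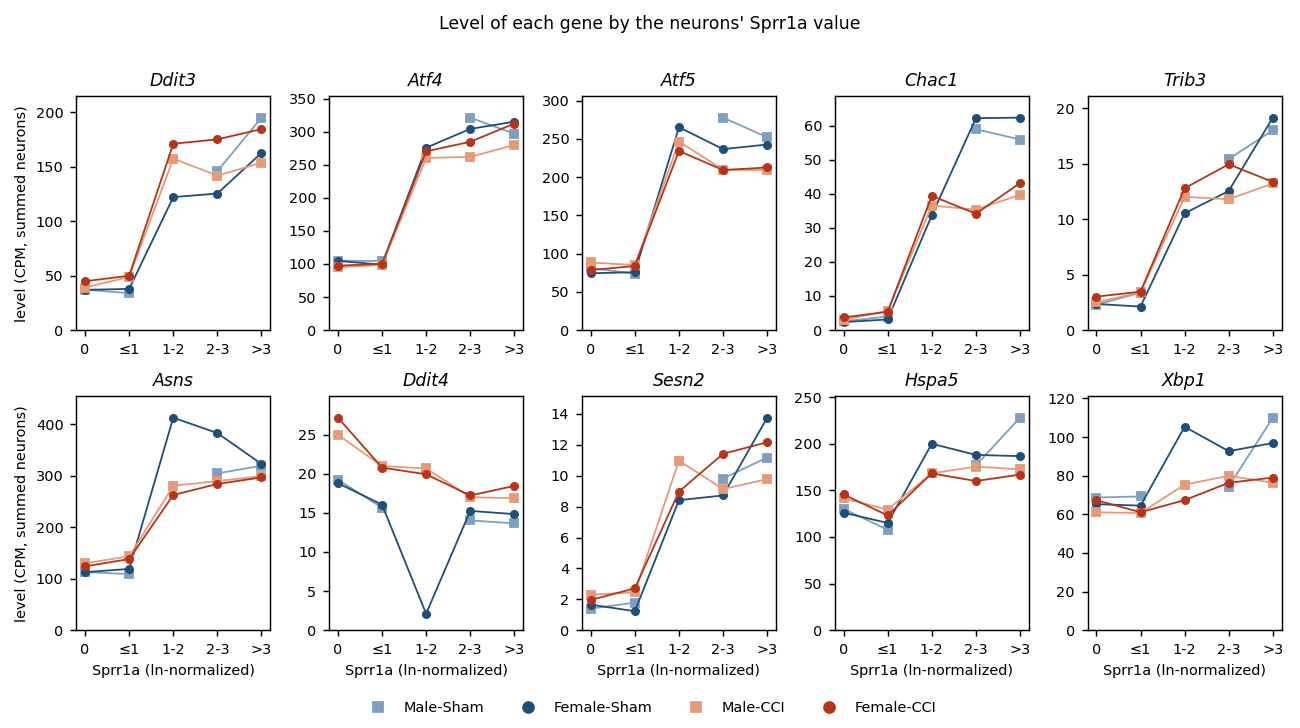
Level of each gene (CPM) in neurons grouped by their normalised Sprr1a value, 1 line per library, with groups under 10 cells left out. In Female-CCI, Chac1 goes from 5.38 CPM at values up to 1 to 39.4 CPM at values from 1 to 2 and 43.1 CPM above 3, and Atf4 from 100.2 to 270.3 and 312 CPM.

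The share of single neurons with at least 1 Chac1 UMI followed the same order, though it depends on depth. It was 11.0%, 7.37%, 15.6% and 13.3% in Sprr1a- neurons and 73.8%, 71.5%, 63.5% and 59.6% in Sprr1a+ neurons, at median depths of 45022, 32126.5, 51202.5 and 40010.0 UMIs and of 65571.5, 45234.0, 60287.0 and 45680.0 UMIs. With every neuron thinned to 2000 UMIs (none was shallower) a Chac1 UMI remained in 0.679% of the Sprr1a- neurons of Male-Sham, 21 of 5254 of Female-Sham, 0.593% of Male-CCI and 0.920% of Female-CCI, against 11.9%, 15.3%, 7.16% and 6.37% of the Sprr1a+ neurons. The exact 95% intervals of thinned Sprr1a- and Sprr1a+ shares did not overlap in any library (0.426 to 1.03% against 3.98 to 25.6% in Male-Sham, and 0.537 to 1.47% against 5.28 to 7.61% in Female-CCI). Within Sprr1a- neurons the thinned levels are near that of 1 UMI and carry no comparison between surgeries. These intervals cover counting error only.

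Neuronal classes were named from fixed markers as non-peptidergic (NP1 to NP3), peptidergic (PEP1 to PEP5), neurofilament-rich (NF1, NF2) and C-fibre low-threshold mechanoreceptor (cLTMR), with "-like" as a reminder that the names rest on rebuilt clusters. Before injury the 10 genes were not evenly spread over these classes. In Sprr1a- neurons of sham, Atf5 had the widest range among the transcription factors, from 171 ± 20.8 CPM (SD, n = 2) in NP1-like to 15.2 ± 2.06 CPM in NF1-like neurons, and 8 of 9 neighbouring classes in its order were apart by more than the spread of their libraries. Ddit3 was also highest in NP1-like (49.5 ± 3.73 CPM) and lowest in NF1-like neurons (20.4 ± 0.749 CPM), with 4 of 9 neighbours apart. Atf4 ranged less, from 122 ± 0.620 CPM in PEP1-like to 66.6 ± 0.229 CPM in NF2-like neurons.

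The effectors and the ER genes each had another order. Ddit4 was highest in PEP3/4-like (47.6 ± 3.43 CPM) and lowest in NP3-like neurons (3.42 ± 0.397 CPM), with 7 of 9 neighbours apart, and Sesn2 was highest in PEP2-like (6.38 ± 0.685 CPM) and lowest in NP2-like neurons (0.530 ± 0.117 CPM), with 4 of 9 neighbours apart. Trib3 went from 4.76 ± 0.430 CPM in NP3-like to 0.617 ± 0.341 CPM in PEP2-like neurons and Asns from 134 ± 4.11 CPM in NP2-like to 70.3 ± 1.99 CPM in NF2-like neurons. For Chac1, highest in NF1-like (3.68 ± 0.285 CPM) and lowest in NP2-like neurons (1.81 ± 0.294 CPM), 0 of 9 neighbours were apart. Hspa5 went from 192 ± 14.9 CPM in PEP2-like to 64.9 ± 6.33 CPM in NP1-like neurons, with 8 of 9 neighbours apart. Xbp1 had the smallest ratio of highest to lowest class (1.61), with 85.6 ± 7.68 CPM in cLTMR-like and 53.1 ± 0.325 CPM in NF1-like neurons. At the ends of these orders some classes were not apart from their neighbour by more than the spread: at the top NP1-like from NP2-like for Ddit3, PEP1-like from NP2-like for Atf4, NP2-like from PEP3/4-like for Asns and PEP2-like from PEP5-like for Hspa5, and at the bottom NP2-like from NP3-like for Sesn2 (0.532 ± 0.298 CPM), NP3-like from cLTMR-like for Ddit4, PEP2-like from NF1-like for Trib3 and NF1-like from NP1-like for Xbp1. After CCI, NP1-like neurons held the highest Sprr1a- level of Ddit3, Atf4, Atf5, Chac1 and Trib3, and for Asns they were not apart from NP2-like neurons (167 ± 10.0 and 165 ± 4.18 CPM). These class levels are descriptions without a test.

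**Figure D4:**
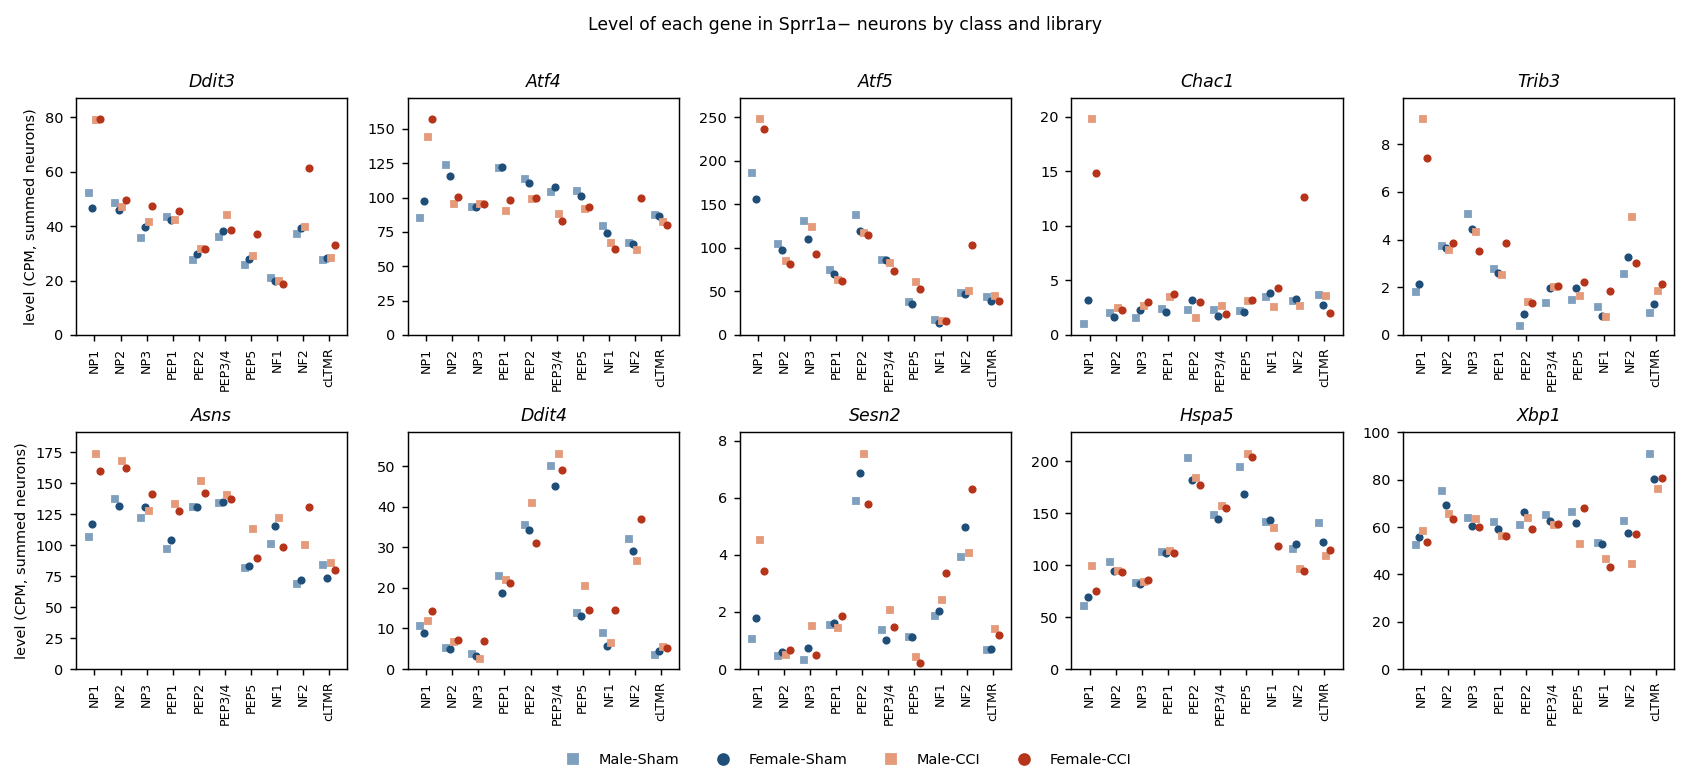
Level of each gene (CPM, each panel with its own axis from 0) in Sprr1a- neurons of 10 classes, 1 point per library. Atf5 spans 15.2 CPM (NF1-like) to 171 CPM (NP1-like) in sham, and the CCI points of NP1-like neurons lie above the sham points for Chac1 (19.8 and 14.8 against 1.04 and 3.22 CPM).

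Patterns were compared over 40 sums (10 classes in 4 libraries), which share libraries and depth. These sums took the Sprr1a- and Sprr1a+ neurons of a class together, so they mix class pattern with the share of Sprr1a+ neurons. The pattern of Trib3 was most like that of another member, Ddit3 (Pearson's r = 0.852 of log2 CPM + 1), and that of Hspa5 was most like Calr, another ER chaperone (r = 0.937). Atf4 was closest to Ifrd1 (r = 0.905) and next to Ddit3 (r = 0.815). The nearest genes were Fxyd5 for Ddit4 (r = 0.929), Ucn for Chac1 (r = 0.912), Rpl13 for Atf5 (r = 0.899), Tlnrd1 for Xbp1 (r = 0.890), Sdc1 for Asns (r = 0.870), Creb5 for Sesn2 (r = 0.860) and Rab10 for Ddit3 (r = 0.855). Only genes with a mean of at least 10 CPM over these sums were candidates for a match, which left lower members such as Trib3 out. Among the members that were candidates the best match of Xbp1 was Atf4 with r = 0.297, at place 1885 of 8341 genes.

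Sprr1a+ neurons of CCI were numerous enough in each library to be compared with Sprr1a- sham neurons of the same class in NP1-like, NF1-like and NF2-like neurons. The response differed between the 3 classes for most of the genes: Hspa5 was called higher in NP1-like neurons alone, and Atf4 and Ddit3 were called in NP1-like and NF2-like but not in NF1-like neurons, where Atf4 was called once Male-CCI was left out. A test of the difference between classes called 7 of the 10 genes, against 40.9% of 13058 genes: Hspa5 (edgeR adjusted p = 8.44e-09), Atf4 (4.84e-08), Asns (6.44e-06), Chac1 (7.61e-06), Ddit3 (1.51e-04), Ddit4 (2.39e-04) and Trib3 (0.0231). The edgeR adjusted p was 0.0807 for Atf5, 0.0870 for Sesn2 and 0.0522 for Xbp1.

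In NP1-like neurons (83, 71, 98 and 113 cells) 9 of 10 genes were called higher, against 21.1% of 11378 genes. Hspa5 was at 60.5 and 69.4 CPM in sham and 168 and 156 CPM in Sprr1a+ CCI neurons (log2 change 1.39 ± 0.11, edgeR adjusted p = 1.19e-16), and Atf4 at 85.4, 97.3, 238 and 253 CPM (log2 change 1.49 ± 0.11). Chac1 changed by 4.26 ± 0.28, Trib3 by 3.19 ± 0.32, Sesn2 by 2.79 ± 0.42, Ddit3 by 1.71 ± 0.12, Asns by 1.37 ± 0.10, Ddit4 by 0.75 ± 0.22 and Xbp1 by 0.65 ± 0.11 on the log2 scale. The call of Ddit4 was lost with DESeq2 (0.77, adjusted p = 0.0909). Atf5, the gene with its highest resting level here, was at 186, 156, 233 and 206 CPM and was not called (log2 change 0.42 ± 0.10), except without Male-Sham (0.52). Of the NP1-like cells, 208 of the Sprr1a+ CCI neurons lay in cluster 23 and 145 of the Sprr1a- sham neurons in cluster 25, so the comparison is largely one between these clusters. Markers of other cell types moved in it as well: from sham to Sprr1a+ CCI neurons 6 Schwann cell markers, of which 1 or 2 reached 10 CPM, summed to 158, 228, 575 and 609.6 CPM, 6 endothelial markers to 1.56, 5.37, 45.0 and 46.1 CPM, and 10 immune markers, 4 to 7 of them at 0, to 4.67, 5.37, 104 and 59.4 CPM. Their part in the result was not tested.

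In NF1-like neurons (148, 165, 55 and 32 cells) 5 of 10 genes were called higher, against 21.7% of 12104 genes. These were Trib3 (log2 change 2.15 ± 0.48), Atf5 (1.56 ± 0.16), Sesn2 (1.31 ± 0.40), Chac1 (1.16 ± 0.36) and Asns (0.83 ± 0.11). Of the Sprr1a+ CCI neurons 83 lay in cluster 19 and 4 in cluster 27, against 214 and 99 of the sham neurons, and the part of this mix in the calls was not tested. In this comparison 10 SGC markers summed to 1152.6, 1261.4, 1831.3 and 1840.5 CPM. The 15 immediate early and dissociation genes, which tissue handling can raise, summed to 460.1, 455.3, 752.4 and 738.1 CPM. The 10 immune markers, 3 to 9 of them at 0, summed to 2.71, 2.13, 18.6 and 7.64 CPM. The part of these shifts was not tested either. Ddit3 was at 20.9, 19.9, 18.2 and 20.0 CPM, with the groups overlapping (log2 change 0.21 ± 0.16, edgeR adjusted p = 0.295), and Atf4 at 79.3, 73.8, 73.0 and 92.3 CPM (log2 change 0.40 ± 0.11), also overlapping. With library totals in place of TMM factors the median of all genes moved from -0.06 to -0.39, the calls from 2625 higher and 2880 lower to 1615 higher and 4634 lower, Ddit3 to -0.12, and Chac1 lost its call (0.83, adjusted p = 0.0568). The Chac1 call was also lost without Female-CCI (0.79), that of Trib3 without Male-CCI (1.86), and that of Sesn2 without Male-Sham, Female-Sham or Male-CCI (1.15 to 1.35) and with DESeq2 (1.33). Without Male-CCI, Atf4 was called (0.56, edgeR adjusted p = 0.00463), and without Female-CCI, Xbp1 (0.50). With any Sprr1a UMI as positive the calls of Chac1 (0.50) and Asns (0.43) were lost.

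In NF2-like neurons (77, 94, 80 and 80 cells) 7 of 10 genes were called higher, against 21.1% of 11745 genes, and 1 lower, against 22.4%. Chac1 was at 3.08, 3.27, 28.2 and 35.4 CPM (log2 change 3.54 ± 0.21, edgeR adjusted p = 5.14e-07). Ddit4 fell from 31.9 and 29.2 CPM to 16.1 and 15.7 CPM (log2 change -0.71 ± 0.14, edgeR adjusted p = 0.00214). The other called genes were Atf5 (1.92 ± 0.31), Atf4 (1.80 ± 0.16), Asns (1.79 ± 0.15), Ddit3 (1.55 ± 0.26), Trib3 (1.46 ± 0.31) and Sesn2 (1.43 ± 0.28). The immune markers summed to 10.8, 9.03, 79.7 and 76.5 CPM in this comparison, with 1 of the 10 at 10 CPM or more in each CCI library. The 15 immediate early and dissociation genes summed to 499.9, 667.2, 867.9 and 1084.6 CPM. The part of these shifts was not tested. The call of Atf5 was lost without Female-Sham (log2 change 1.92, adjusted p = 0.0653), and Ddit4 lost its call when any Sprr1a UMI counted as positive (-0.32). Hspa5 was at 115, 120.3, 111 and 97.8 CPM, and its log2 change of 0.06 ± 0.11 turned to -0.17 with library totals, under which all calls moved from 2480 higher and 2636 lower to 1707 higher and 3697 lower.

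A clustering that left injury genes out, 7 of the 10 members among them, placed enough Sprr1a+ neurons in 3 further classes. In NP2-like neurons 7 of 10 genes were called higher (25.7% of all genes), led by Sesn2 (log2 change 4.43 ± 0.28) and Chac1 (3.97 ± 0.16), and here Ddit4 was among them (1.68 ± 0.14). In PEP5-like neurons 7 were called (22.2% of all genes), with Chac1 at 4.14 ± 0.20 and Atf5 at 2.74 ± 0.09. In PEP1-like neurons, with 17 cells in each CCI library, 5 were called (14.1% of all genes), with Chac1 at 2.42 ± 0.36, while Atf4 did not pass (0.41 ± 0.15, edgeR adjusted p = 0.0566). Hspa5 was between 0.25 and 0.40 in these 3 classes and was called in none of them.

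**Figure D5:**
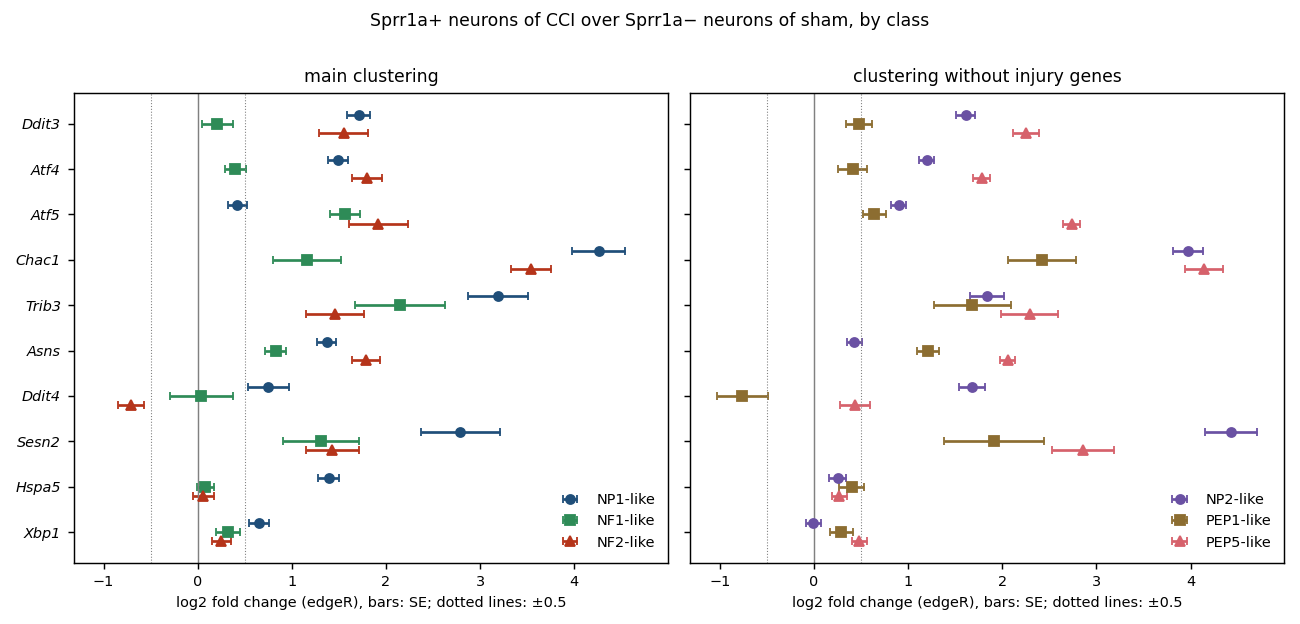
Log2 change of each gene with its standard error in Sprr1a+ CCI neurons against Sprr1a- sham neurons of the same class, for 3 classes of the main clustering (left) and 3 of the clustering without injury genes (right). Chac1 is 4.26, 1.16 and 3.54 in NP1-like, NF1-like and NF2-like neurons, Hspa5 is 1.39, 0.08 and 0.06, and dotted lines mark the size limit.

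Sprr1a- neurons of CCI were compared with those of sham in 10 classes, and 8 changes of a member were called in all. Of these, 5 were in NP1-like neurons, against 2.33% of its genes: Chac1 (log2 change 3.08 ± 0.43, edgeR adjusted p = 2.08e-04), Trib3 (2.03 ± 0.51), Atf4 (0.71 ± 0.14), Ddit3 (0.66 ± 0.15) and Asns (0.56 ± 0.13). Chac1 was at 1.04, 3.22, 19.8 and 14.8 CPM there, with both CCI libraries above both sham libraries. The mix of clusters differed between the surgeries: 18 of these CCI neurons lay in cluster 23, where most Sprr1a+ NP1-like neurons lay, and 48 in cluster 25, against 9 and 145 of the sham neurons, and the part of this mix in the calls was not tested. In the same groups 6 Schwann cell markers, 2 of which reached 10 CPM in each library, summed to 157.5, 227.6, 304.8 and 338.7 CPM. The 6 endothelial markers summed to 1.56, 5.37, 7.34 and 16.0 CPM. The part of these markers was not tested either. The NP1-like calls rest on 31 and 35 CCI cells, and without Male-Sham 4 of the 5 were lost (Trib3, Atf4, Ddit3 and Asns) and without Female-Sham 3 (Trib3, Ddit3 and Asns). Trib3 was also lost without Male-CCI (log2 change 1.91), and with DESeq2 the calls of Ddit3 and Asns were lost (adjusted p = 0.113 and 0.0556). When any Sprr1a UMI counted as positive none of the 7 members still tested was called there, and Atf4 turned to -0.34.

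Each of the other 3 calls stood alone in its class. Asns was called in NF2-like neurons (0.77 ± 0.13, edgeR adjusted p = 0.00983, 1.30% of genes called higher), Chac1 in PEP1-like neurons (0.70 ± 0.20, edgeR adjusted p = 0.0419, 2.74%) and Atf5 in PEP5-like neurons (0.61 ± 0.10, edgeR adjusted p = 4.03e-04, 1.95%). The PEP1-like call was lost when any 1 library was left out (0.62 to 0.77), with DESeq2, with any Sprr1a UMI as positive (0.56) and with injury genes left out of the clustering (0.61). In NF2-like neurons Chac1 was at 3.08, 3.27, 2.62 and 12.6 CPM and Atf5 at 47.7, 47.3, 50.7 and 103 CPM, so that Female-CCI alone was high.

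No member was called in the NP2-like (2.60% of genes called higher), NP3-like (1.58%), PEP2-like (2.57%), PEP3/4-like (2.25%), NF1-like (0.635%) or cLTMR-like (0.885%) neurons. Atf4 was lower in several of them by less than the size limit, with log2 changes of -0.31 ± 0.07 in NP2-like and -0.32 ± 0.06 in PEP3/4-like neurons, and -0.36 ± 0.06 in PEP1-like neurons (edgeR adjusted p = 0.00460, 0.00570 and 0.00440). The change differed between classes for 5 of the 10 genes, against 12.0% of 14944 genes: Atf4 (edgeR adjusted p = 6.74e-05), Hspa5 (5.04e-04), Asns (0.00455), Chac1 (0.0183) and Atf5 (0.0299).

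The SGC-like cells that passed the sort (186, 145, 118 and 109 cells) showed another pattern, in which Hspa5 was called and Atf4 and Ddit3 were not. Their defining gene Fabp7 was at 13707 to 16291 CPM, and the 10 SGC markers, none of them at 0, summed to 160906 and 164430 CPM in sham and to 134526 and 147615 CPM in CCI. The neuronal gene Tubb3 was at 160.2 and 190.4 CPM in the sham cells and at 224 and 349 CPM in the CCI cells, and 6 fibroblast markers, 3 of 6 at 0 in each library, summed to 267 and 310 CPM in sham and 429 and 406 CPM in CCI. The part of these shifts in the results was not tested. Of the 10 genes 6 passed the filter on low counts, and only Hspa5 was called by edgeR, against 1.77% of 7279 genes. Hspa5 was at 169, 176, 364 and 332 CPM (log2 change 0.97 ± 0.14, edgeR adjusted p = 1.12e-05), with both CCI libraries above both sham libraries. Atf4 was at 161, 180.3, 139 and 138 CPM, lower in both CCI libraries, without a call (-0.34 ± 0.16, adjusted p = 0.294). Without Female-CCI, Ddit4 was called as well (0.71). Chac1 had 0 UMIs in both sham libraries, which allows up to 2.69 and 4.36 CPM, and 1 UMI in each CCI library.

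The change in SGC-like cells differed from that in neurons for 3 genes by edgeR, against 3.64% of 16538 genes. The log2 change of SGC-like cells minus that of neurons was -1.32 ± 0.17 for Atf4 (edgeR adjusted p = 5.14e-12), -1.27 ± 0.32 for Ddit3 (adjusted p = 0.00444) and 0.61 ± 0.15 for Hspa5 (adjusted p = 0.00371). Of 13 tested genes of the ER chaperone list 1 was called higher in CCI in these cells, Calr (0.53 ± 0.12, edgeR adjusted p = 0.00775), against 1.77% of 7279 genes.

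Other genes of the pathways were counted from lists by role, beside 15.2% of all genes called higher and 12.7% called lower in all neurons. In all neurons of CCI against sham, 18 of 23 tested ATF4 targets were called higher and 0 lower, with a median log2 change of 1.52. This list held genes of amino acid and one-carbon metabolism and also stress factors such as Cebpb, Gdf15 and the injury-induced Atf3. The largest changes were those of Cth, which makes cysteine from cystathionine (3.43 ± 0.18), the cystine transporter gene Slc7a11 (3.01 ± 0.19) and Phgdh, the entry enzyme of serine synthesis (2.85 ± 0.23). Of 12 cytosolic aminoacyl-tRNA synthetases, which charge transfer RNA, 10 were called higher and 0 lower (median 0.86), led by Cars (1.59 ± 0.06), Aars (1.21 ± 0.06) and Wars (1.09 ± 0.05). Among 12 eIF2 kinases and regulators 2 were called higher, Eif2ak2, the kinase PKR (0.95 ± 0.08), and Ppp1r15a, the phosphatase subunit GADD34 that reverses eIF2 phosphorylation (0.58 ± 0.05), which is near the 15.2% of all genes.

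In the 3 lists of the ER and the unfolded protein response the shares called in either direction were below those of all genes, without a test of the difference. Of 16 ER chaperones and folding enzymes 1 was called higher, the disulfide isomerase gene P4hb (0.63 ± 0.05), and their median log2 change was -0.11. Of 8 sensors and transducers of the unfolded protein response 0 were called higher and 1 lower, Crebrf (-0.64 ± 0.04), and of 12 genes of ER-associated degradation 0 were higher and 1 lower, Derl3 (-0.91 ± 0.23). Of 8 mitochondrial stress genes 2 were higher, the protease gene Lonp1 (0.78 ± 0.05) and the chaperone gene Hspa9 (0.55 ± 0.05), beside the 15.2% of all genes. Immediate early and dissociation genes, which tissue handling can raise, had 3 higher and 5 lower of 15 (median -0.30), and their part in the result was not tested.

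Within CCI, Sprr1a+ neurons were compared with Sprr1a- neurons over these lists, where 20.9% of all genes were called higher and 24.7% lower. Of the 23 ATF4 targets 20 were higher and 1 lower (median 1.91) and of the 12 synthetases 11 were higher, while of the 16 ER chaperones 3 were higher and 1 lower (median -0.07), the higher ones near the share of all genes. Of the 12 eIF2 kinases and regulators 2 were higher, Ppp1r15a (1.14 ± 0.04) and Eif2ak3, the ER kinase PERK (1.04 ± 0.06), and of the 8 sensors and transducers of the unfolded protein response 1 was higher, Ern1, which encodes IRE1 (0.78 ± 0.09), and 1 lower, Crebrf (-1.48 ± 0.05), shares no larger than those of all genes. Among the called ER chaperones the oxidoreductase gene Ero1l was higher by 0.83 ± 0.04 and P4hb by 0.80 ± 0.04, and Dnajc3 differed by -0.72 ± 0.04. Of the 15 immediate early and dissociation genes 5 were higher and 7 lower within CCI (median -0.45), and their part was not tested. In the few Sprr1a+ neurons of sham, 14.7% of all genes were called higher and 3573 of 15832 lower. There 6 of 12 eIF2 regulators were higher and 1 lower, and 4 of 12 genes of ER-associated degradation were higher, led by Herpud1 (0.95 ± 0.07). Of 8 sensors and transducers 4 were higher, led by Ern1 (1.03 ± 0.25), and 1 lower, Crebrf (-1.40 ± 0.10). Of 16 ER chaperones 2 were higher and 1 lower. Of 15 immediate early and dissociation genes 3 were higher and 10 lower (median -0.87), and their part was not tested. In Sprr1a- neurons of CCI against sham 4 of 22 ATF4 targets were higher and 1 lower (median 0.27), beside 3.24% of all genes called higher and 204 of 16407 called lower, 0 of 12 synthetases and 0 of 16 ER chaperones were called in either direction, and Eif2ak2 rose there too (1.09 ± 0.08, edgeR adjusted p = 0.00218).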

How the data were processed

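EGFP-sorted DRG cells were profiled with 10x Genomics 3′ version 3 chemistry in 4 libraries. The authors deposited raw UMI counts per gene and cell, aligned and counted with Cell Ranger (2.1.1 in the submitters' processing notes, 3.0.2 in the header of the matrices), without normalisation. Cells with at least 1500 genes and at most 10% mitochondrial UMIs were kept, and the barcodes with the highest Scrublet scores (scanpy 1.11.5, assumed rate 0.1) were removed as doublets, as many per library as the study lists. Clusters came from Seurat 5.3.0 (integration on 3000 features, 20 principal components, resolution 0.8) and were named from markers, at least 3 of them. Ddit3, Atf5, Chac1 and Asns were among these features.

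Counts were summed per library and cell group of at least 10 cells and tested with edgeR 4.0.16 (TMM factors, filterByExpr, robust quasi-likelihood, R 4.3.3). Tests between surgeries used 2 libraries against 2, tests of Sprr1a status had the library as a block, taken from cells of the same pools. Tests of differences between classes or cell types used an interaction term. Test steps were tried on simulated counts. Alternatives were DESeq2 1.42.0, other size factors, no filter, a block of sex, libraries left out, other Sprr1a limits (2, or any UMI), doublets kept, at least 3000 genes, and other clusterings. Library totals as the only scaling were added after seeing the data. The text names all 10 genes, up to 3 called genes per further list with the largest change and the same direction in both sexes, the nearest genes by correlation, and each gene's highest and lowest class. The genes and lists were chosen with earlier results of these data known.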

Additional observations from a re-analysis of the deposited data

Results flagged for a closer look

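The change between surgeries differed between classes of Sprr1a+ neurons (NP1-like, NF1-like and NF2-like, by an edgeR interaction test) for Hspa5 (adjusted p = 8.44e-09), Atf4 (4.84e-08), Asns (6.44e-06), Chac1 (7.61e-06), Ddit3 (1.51e-04), Ddit4 (2.39e-04) and Trib3 (0.0231). Hspa5 had log2 changes of 1.39, 0.08 and 0.06 in the 3 classes, and Ddit4 of 0.75, 0.04 and -0.71.

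Among the 10 classes of Sprr1a- neurons the same kind of test found differences for Atf4 (edgeR adjusted p = 6.74e-05), Hspa5 (5.04e-04), Asns (0.00455), Chac1 (0.0183) and Atf5 (0.0299). Atf4 had a log2 change of 0.71 in NP1-like and -0.36 in PEP1-like neurons.

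Between neurons and SGC-like cells the change differed for Atf4 (edgeR adjusted p = 5.14e-12), Hspa5 (0.00371) and Ddit3 (0.00444). Hspa5 had log2 changes of 0.28 in neurons and 0.97 in SGC-like cells, and Atf4 of 0.91 and -0.34.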

How the results depend on the processing

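Of 976 member values under an alternative, 909 kept their direction and side of the threshold, 42 lost a call, 6 gained one and 19 reversed. For Sprr1a- neurons by class only members called with the main settings were followed, so calls gained there by other members are not counted. The 7 calls in all neurons stood under every alternative run (110 member values). In Sprr1a- neurons the count of members called went from 2 to 0 when any Sprr1a UMI counted as positive, and was 1 without any single library. By class in Sprr1a- neurons 8 calls became 3 with DESeq2, 1 with any Sprr1a UMI as positive (9 classes), and 3 to 10 with a library left out. In SGC-like cells the leave-one-out range was 1 to 2. With the median of all genes moved by the scaling, library totals gave -0.12 for Ddit3, -0.29 for Ddit4, -0.25 for Hspa5 and -0.01 for Xbp1 in NF1-like and -0.17 for Hspa5 in NF2-like Sprr1a+ neurons. With any Sprr1a UMI as positive, values turned to -0.04 for Hspa5 and -0.01 for Xbp1 in NF1-like, -0.07 for Hspa5 in NF2-like and -0.34 for Atf4 in NP1-like Sprr1a- neurons. Without a filter Hspa5 was -0.00 in Sprr1a- neurons and Ddit4 -0.03 in NF1-like neurons, and with injury genes left out of the clustering Hspa5 was -0.07 in NF2-like neurons. With a library left out, Ddit4 ranged from -0.24 to 0.45 in NF1-like and Hspa5 from -0.07 to 0.20 in NF2-like neurons, and in SGC-like cells Atf5 from -0.14 to 0.35 and Xbp1 from -0.07 to 0.19. The cause of these shifts was not tested.

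Libraries of the same sex came from different mice in sham and CCI and were not taken as pairs, although the male minus female difference correlated between sham and CCI with r = 0.32 over 8213 genes in all neurons, 0.43 in Sprr1a- neurons and 0.03 in SGC-like cells. A replicate block of sex called 7 members in all neurons, 2 in Sprr1a- neurons, 22 over the Sprr1a+ classes, 9 over the Sprr1a- classes and 1 in SGC-like cells, and over all genes of Sprr1a- neurons it raised the calls from 735 to 1077. Without the replicate block of library 8 members were called within CCI and 9 within sham. With library totals the higher and lower calls over all genes moved from 129 and 109 to 136 and 66 in SGC-like cells and, in Sprr1a- neurons, from 185 and 125 to 258 and 86 in NP3-like, 110 and 104 to 151 and 66 in cLTMR-like, 238 and 172 to 280 and 126 in PEP5-like, and 147 and 70 to 115 and 87 in NF2-like neurons. Depth limits the rarest genes in small classes: the Chac1 level of NP1-like Sprr1a- neurons rests on 4 and 9 UMIs in Male-Sham and Female-Sham.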

Other observations

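A cluster of CCI neurons that fixed markers left unnamed (cluster 18, 140 Male-CCI and 264 Female-CCI neurons) carried Sprr1a at 3783 and 2885 CPM, and the CCI-induced-like clusters together at 3495 and 2730 CPM. Chac1 was at 14.5 and 9.87 CPM in cluster 18 and at 45.8 and 47.8 CPM in the CCI-induced-like neurons of Male-CCI and Female-CCI, and Ddit3 at 49.8 and 51.5 CPM against 186 and 218 CPM. Lower levels were not particular to cluster 18, since cluster 21, which is among the CCI-induced-like clusters, had Chac1 at 27.2 and 37.5 CPM, Ddit3 at 91.3 and 119 CPM and Trib3 at 6.27 and 7.02 CPM. Hspa5 was at 121 and 112 CPM in cluster 18, 187 and 174.5 CPM in cluster 21 and 193 and 183 CPM in all CCI-induced-like neurons. Ddit4 was at 22.9 and 18.8 CPM in cluster 18 against 17.5 and 18.6 CPM. The clustering used Chac1 and Ddit3, so these levels are a description without a test.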
